A study of Mus musculus with 8 samples.

Results

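Rbpms, Megf10, Gvin1, Ctsw, Flrt3, Cdsn and Apobr were 7 genes of mouse melanoma cells that moved in the same direction in co-culture with fibroblasts whether or not the BRAF inhibitor PLX4720 was present, out of 7357 genes tested and 16593 genes with a named probe. They were picked for that shared direction, so their co-culture differences are given here as a description, with no test. RNA of the melanoma line 5555-mEGFP, which carries a green fluorescent protein, was measured on Illumina mouse bead arrays in 4 groups of 2 arrays. The groups were co-culture with MAF2-mCherry melanoma-associated fibroblasts in PLX4720, mono-culture in PLX4720, co-culture in DMSO at 0.1% and mono-culture in DMSO at 0.1%, each after 24 h. The sample labels state PLX4720 at 1 mM, and with no dose for these arrays in the study's text the unit could not be checked. The mEGFP-positive cells of the co-cultures were collected by fluorescence-activated sorting, whereas the sources do not say whether the mono-cultures were sorted. All groups came from 1 melanoma line and the co-cultures from 1 fibroblast line, and nothing states that the 2 arrays of a group came from separate cultures, so p-values measure the spread between these arrays, which may be technical.

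The 7 genes have different known roles. Rbpms encodes an RNA-binding protein that regulates splicing and marks smooth muscle and retinal ganglion cells. Megf10 is a transmembrane receptor with repeated EGF-like domains through which glia bind and engulf other cells. Gvin1 belongs to the very large interferon-inducible GTPases, and Ctsw encodes cathepsin W, a cysteine protease known from cytotoxic lymphocytes. Flrt3 is a leucine-rich repeat cell-surface protein that binds latrophilins and Unc5 receptors and also takes part in FGF signalling. Cdsn encodes corneodesmosin, an adhesion protein of the desmosomes of the outer epidermis, and Apobr is a receptor that takes up apolipoprotein B48-containing lipoproteins, known chiefly from macrophages. Fibroblasts in contact with tumour cells provide matrix, soluble ligands and cell-cell contacts, and PLX4720 blocks mutant BRAF, the kinase upstream of MEK and ERK in many melanomas.

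On each array 9755 to 10021 probes, or 38.0% to 39.0%, were detected, meaning a detection p under 0.01 against the negative-control probes of that array. Levels are log2 intensities after background correction and quantile normalization, and replicate arrays correlated with r of 0.990 to 0.995 across the genes tested. None of 12 melanocyte lineage markers with a probe was detected on any of the 8 arrays, so the label of a melanoma line had no support from pigment-lineage genes. Of 19 fibroblast markers, 13 were detected on both arrays of co-culture and of mono-culture in PLX4720, 7 in co-culture in DMSO and 9 in mono-culture in DMSO, and 6 were detected on no array. Their summed linear level lay at 13100 to 14800 in co-culture against 11920 to 19270 in mono-culture in PLX4720, and at 3984 to 4123 in co-culture against 4138 to 4405 in mono-culture in DMSO. Of 16 leukocyte markers 14 were detected on no array, the exceptions being Cd14 and Prf1, and of 12 keratinocyte markers 10 were detected on no array and Krt10 alone was detected on both arrays of every group. In such bulk RNA, fewer cells that express a gene and less of its RNA per cell cannot be told apart.

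Rbpms, Megf10, Gvin1 and Ctsw were the 4 genes that were higher in co-culture in both treatments, a pattern without overlap between the groups that 8.77% of all genes tested had. Rbpms stood at 7.22 and 7.44 in co-culture against 4.87 and 4.83 in mono-culture in PLX4720, and at 7.33 and 7.46 in co-culture against 5.03 and 4.73 in mono-culture in DMSO. Its probe was detected on all 4 co-culture arrays with a detection p of 0 and on no mono-culture array, where the detection p was 0.102 and 0.118 in PLX4720 and 0.0614 and 0.193 in DMSO. Rbpms, on chromosome 8 (33782643 to 33929922 of GRCm38.p6), was thus detected in co-culture and at background in mono-culture, and its co-culture arrays in the 2 treatments overlapped each other, as did its mono-culture arrays. On the background-corrected scale the level in co-culture was at least 3.46-fold higher than in mono-culture in PLX4720 and at least 3.59-fold higher in DMSO, calculated against the lowest signal that counted as detected because the mono-culture gave only a bound. The measured log2 differences were 2.48 and 2.52 (SE 0.15 each). Without background correction, as in the deposited log2 values, they were 0.99 and 1.02, which is below the bounds, so every fold and bound given here holds for the background-corrected scale alone. The 2 other Rbpms probes were detected on no array.

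Megf10 was read by 1 probe and lies on chromosome 18. Its level was 7.39 and 7.48 in co-culture against 6.34 and 5.33 in mono-culture in PLX4720, and 7.86 and 7.78 in co-culture against 5.63 and 5.96 in mono-culture in DMSO. Unlike Rbpms, Megf10 was also detected without fibroblasts, on 3 of 4 mono-culture arrays, with a detection p of 0.0226 on the remaining one, replicate 2 in PLX4720. The mono-culture arrays in PLX4720 were far apart (SD 0.72), whereas the other groups of this gene had an SD of 0.06 to 0.23. Megf10 was 3.03-fold higher in co-culture than in mono-culture in PLX4720 and 4.06-fold higher in DMSO (log2 differences of 1.60 and 2.02, SE 0.27 each). Without background correction the log2 differences were 0.74 and 1.02.

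Gvin1 (chromosome 7, 106156535 to 106215340) stood at 7.08 and 7.19 in co-culture against 5.56 and 5.33 in mono-culture in PLX4720, and at 6.00 and 6.25 in co-culture against 4.98 and 4.71 in mono-culture in DMSO. The order was co-culture in PLX4720, co-culture in DMSO, mono-culture in PLX4720 and mono-culture in DMSO, and no neighbouring groups in that order overlapped. How many of all genes tested have such an order was not counted. All 4 co-culture arrays and 1 mono-culture array in PLX4720 (detection p of 0.00752) detected the probe, while the other mono-culture arrays had a detection p of 0.0226 in PLX4720 and of 0.0714 and 0.207 in DMSO. Gvin1 was 3.24-fold higher in co-culture than in mono-culture in PLX4720 (log2 difference of 1.69, SE 0.15), where 1 of 2 mono-culture arrays measured it, and at least 1.48-fold higher in DMSO (log2 difference of 1.28). Without background correction the log2 differences were 0.71 in PLX4720 and 0.40 in DMSO, the second below that bound. The RefSeq annotation gives a nearby gene, Gm4070, the same family synonym, so which copies of this gene family the probe reads is not settled. The 2 further Gvin1 probes, made against another transcript record, were detected on no array.

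Ctsw (chromosome 19, 5465043 to 5468628) was the dimmest of the 7, at percentile 0.843 of the mean levels of all genes tested. Its level was 5.59 and 5.58 in co-culture against 4.76 and 4.81 in mono-culture in PLX4720, and 5.89 and 5.76 in co-culture against 4.51 and 4.69 in mono-culture in DMSO. The 4 groups did not overlap, with co-culture in DMSO on top, a separation whose share over all genes was not counted. Yet only 3 arrays passed detection, both co-culture arrays in DMSO (0.00376 each) and 1 of 2 in PLX4720 (0.00627, against 0.0113 on the other). Ctsw RNA was therefore at least 1.21-fold higher in co-culture than in mono-culture in DMSO. In PLX4720 the co-culture mean was 1.03 times the lowest detected signal in mono-culture. This is no bound, since co-culture replicate 2 (5.58) lay below the lowest detected level of its array (5.62). The measured log2 differences were 0.80 in PLX4720 and 1.23 in DMSO (SE 0.12 each), or 0.23 and 0.39 without background correction. The leukocyte markers, of which 14 of 16 were detected on no array, had a summed linear level of 690 to 720 in co-culture against 777 to 838 in mono-culture in PLX4720 and of 851 to 985 in co-culture against 762 to 941 in mono-culture in DMSO.

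**Figure D1:**
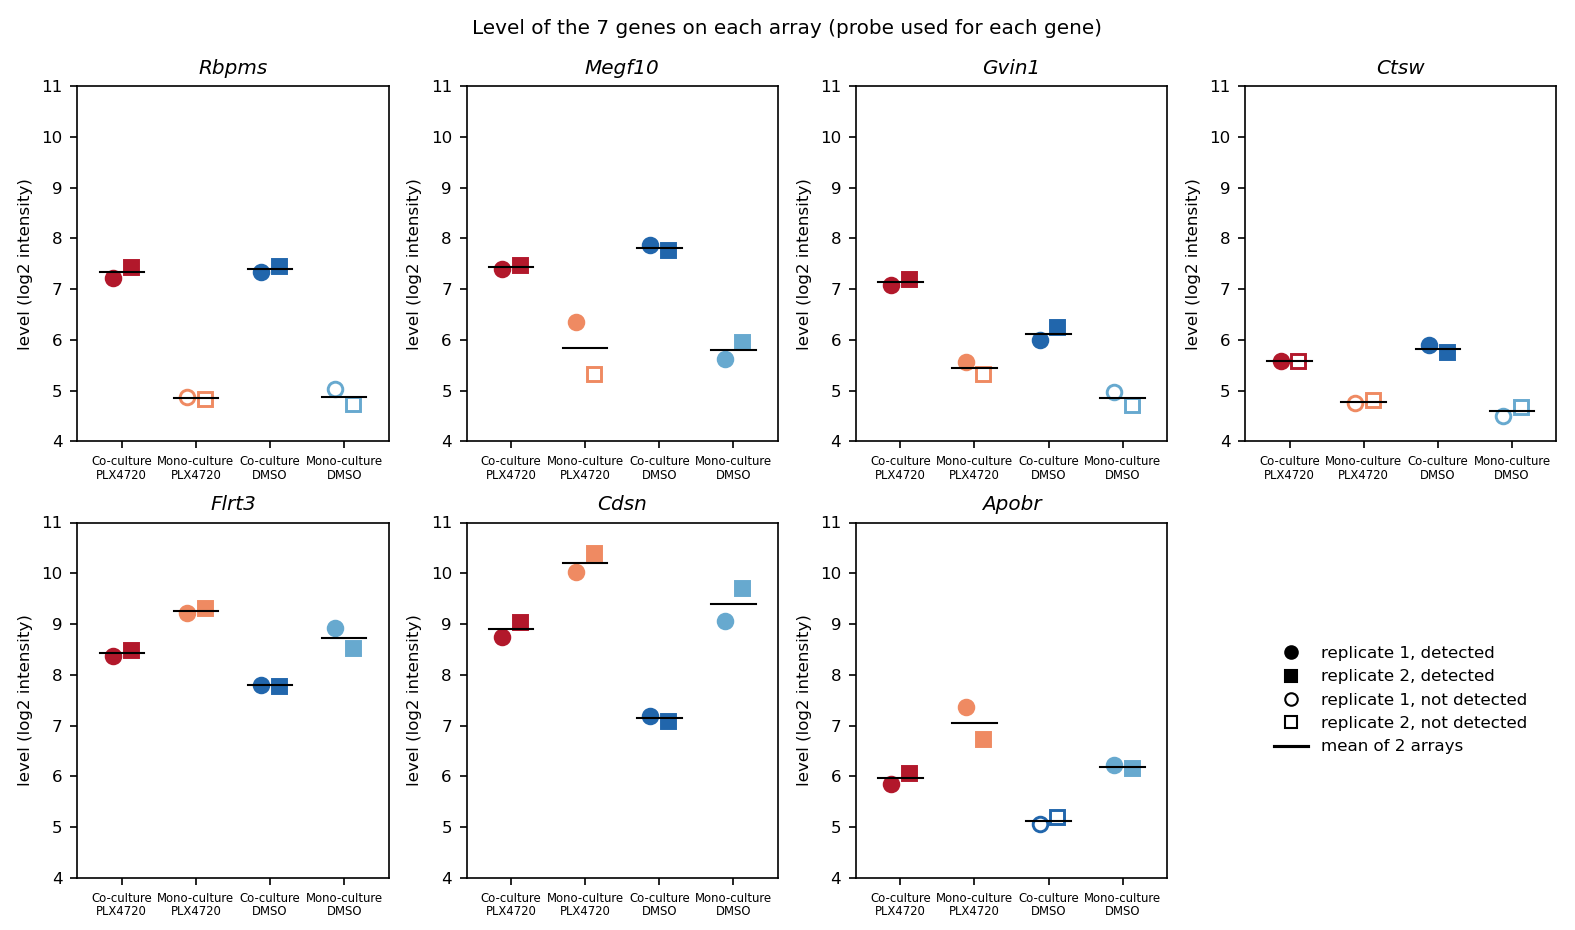
Level of each of the 7 genes (log2 intensity, vertical axis) on each of the 8 arrays, by group on the horizontal axis, with filled symbols where the probe was detected at a detection p under 0.01, open symbols where it was not, and a line at the mean of 2 arrays. In both treatments Rbpms, Megf10, Gvin1 and Ctsw lie higher in co-culture and Flrt3, Cdsn and Apobr lower, with no overlap between co-culture and mono-culture arrays.

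Flrt3, Cdsn and Apobr were the 3 genes that were lower in co-culture in both treatments, as 8.88% of all genes tested were with no overlap. All 3 had the same order of groups, with mono-culture in PLX4720 on top, then mono-culture in DMSO, co-culture in PLX4720 and co-culture in DMSO. No neighbouring groups in that order overlapped for any of the 3, and how many of all genes tested have that order was not counted. The RefSeq promoter table (GRCm38.p6) held these 3 of the 7 genes. Their upstream bases are shown 5′ to 3′, with a match to the AP-1 site, bound by Fos and Jun family factors downstream of ERK, in capitals. The Apobr start in that table lies inside the annotated span of the gene, so its printed stretch stops where the gene begins.
Flrt3 (chr2:140671477-140671726, minus strand): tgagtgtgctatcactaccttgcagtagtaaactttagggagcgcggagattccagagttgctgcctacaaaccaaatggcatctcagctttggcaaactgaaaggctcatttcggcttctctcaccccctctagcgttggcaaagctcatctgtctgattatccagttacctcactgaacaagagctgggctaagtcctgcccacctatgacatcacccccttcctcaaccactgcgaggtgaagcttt
Cdsn (chr17:35542851-35543100, plus strand): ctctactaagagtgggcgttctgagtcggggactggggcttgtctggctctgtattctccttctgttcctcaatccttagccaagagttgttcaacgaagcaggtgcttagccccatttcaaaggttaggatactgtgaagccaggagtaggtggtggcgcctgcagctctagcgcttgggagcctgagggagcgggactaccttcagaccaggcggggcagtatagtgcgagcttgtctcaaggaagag
Apobr (chr7:126584758-126584917, plus strand): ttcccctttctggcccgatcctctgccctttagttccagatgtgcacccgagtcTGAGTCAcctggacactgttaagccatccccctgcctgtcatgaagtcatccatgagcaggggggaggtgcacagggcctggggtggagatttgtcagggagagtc

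Searched over the 250 bases before each of 4 starts of these 3 genes (Cdsn has 2), on both strands, the AP-1 letters TGANTCA occurred once, in Apobr, beginning 196 bases before its start. Of 32851 promoters of the same length in the table, 6.75% held these letters. Of the other letters searched, the cyclic AMP response element TGACGTCA (1.55% of promoters), the antioxidant response element TGACNNNGC (10.2%), the E-box CACGTG (6.02%), the M-box TCATGTG (3.25%), the ETS site CCGGAA (12%), the TEAD site GGAATG (12.6%), the interferon-stimulated response element (2.98%) and the TATA box TATAAA (12.4%) had no match in these windows. The AP-1 site, the cyclic AMP response element and the antioxidant response element begin with the same letters, so matches to them can overlap.

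Flrt3 (chromosome 2, 140658198 to 140671476) stood at 8.38 and 8.48 in co-culture against 9.21 and 9.32 in mono-culture in PLX4720, and at 7.80 and 7.78 in co-culture against 8.92 and 8.54 in mono-culture in DMSO. The probe was detected on all 8 arrays with a detection p of 0. Co-culture reached 0.559 of the mono-culture level in PLX4720 and 0.523 in DMSO (log2 differences of -0.84 and -0.94, SE 0.15 each). A further Flrt3 probe detected on all 8 arrays gave -0.87 and -0.90. The third, detected on both mono-culture arrays in PLX4720 alone, gave -0.84 in PLX4720 and -0.07 in DMSO, where its groups overlapped, so the 3 probes did not give the same difference in DMSO.

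Cdsn (chromosome 17, 35543101 to 35557180) was the brightest of the 7, with 8.75 and 9.03 in co-culture against 10.02 and 10.40 in mono-culture in PLX4720, and 7.19 and 7.09 in co-culture against 9.07 and 9.71 in mono-culture in DMSO. The Cdsn probe was thus above background in every group, least so in co-culture in DMSO, again with a detection p of 0 on all 8 arrays. Co-culture reached 0.401 of the mono-culture level in PLX4720 and 0.211 in DMSO (log2 differences of -1.32 and -2.25, SE 0.22 each, or -1.14 and -1.64 without background correction). The co-culture difference in PLX4720 minus that in DMSO was 0.93 (SE 0.31) on the log2 scale, given with no test. The second Cdsn probe gave -1.24 and -1.87, and was detected on 1 of 2 co-culture arrays in DMSO.

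Apobr (chromosome 7, 126584918 to 126589125) stood at 5.86 and 6.07 in co-culture against 7.36 and 6.73 in mono-culture in PLX4720, and at 5.07 and 5.19 in co-culture against 6.22 and 6.16 in mono-culture in DMSO. It lost detection in co-culture in DMSO, with a detection p of 0.0689 and 0.0401, whereas the other 6 arrays detected it. The level in co-culture was 0.473 of that in mono-culture in PLX4720 (log2 difference of -1.08, SE 0.19), and at least 1.54-fold lower in DMSO, where the measured log2 difference was -1.06. Without background correction the log2 differences were -0.50 in PLX4720 and -0.34 in DMSO, the second short of that bound. The other Apobr probe was detected on no array.

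**Figure D2:**
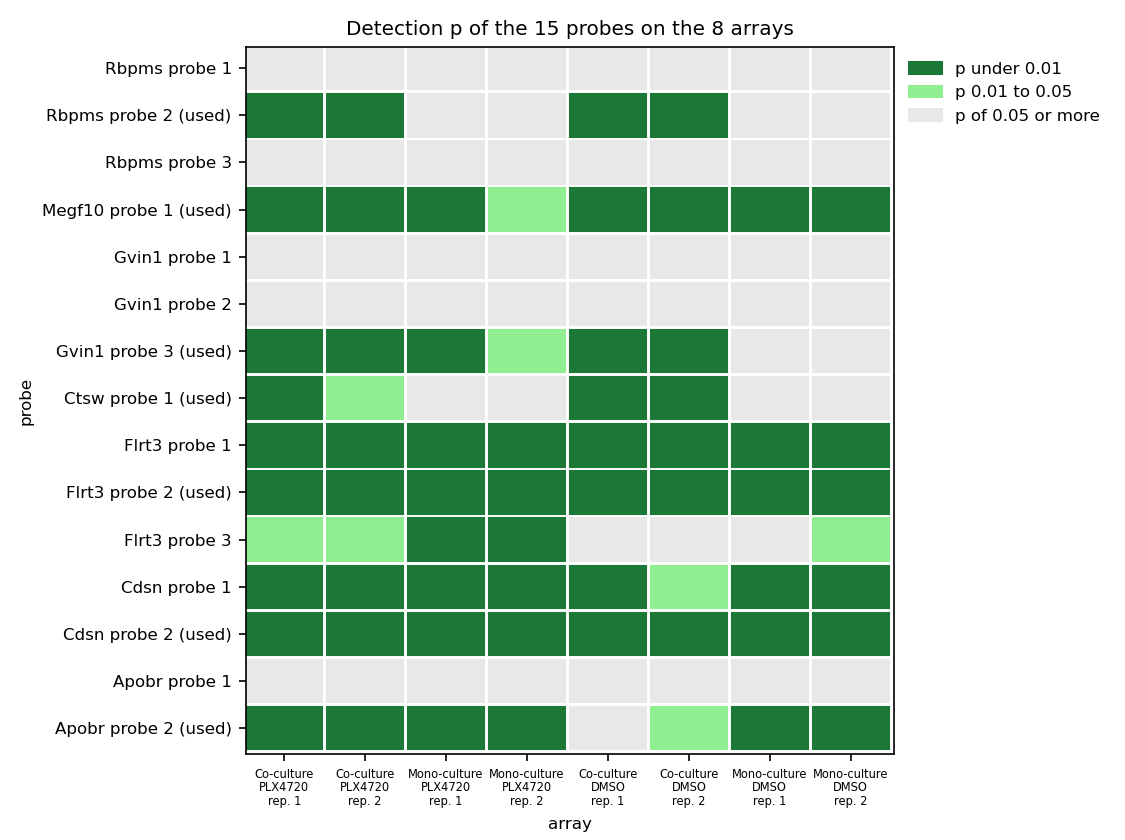
Detection p of the 15 probes annotated to the 7 genes (rows) on the 8 arrays (columns), in 3 classes by colour, with the probe used for each gene marked. Among the probes used, Rbpms and Ctsw have no detected mono-culture array, Apobr has no detected array in co-culture in DMSO, and Flrt3 and Cdsn are detected on all 8 arrays.

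The 7 genes had 15 probes, of which 10 passed the filter of detection on at least 2 arrays and 5 were detected on no array. A gene such as Rbpms or Ctsw passed that filter through its co-culture arrays, and so had to be the higher there. With the spread of all 8 arrays pooled in 1 limma fit, 1.66% of all genes tested passed an adjusted p of 0.05 for the DMSO comparison of co-culture with mono-culture and 7.35% for the PLX4720 one, and 49.1% and 54.3% had groups that did not overlap. All 7 genes were apart in the same direction in both treatments, as their choice required, against 17.6% of all genes tested. The 41 genes that passed the adjusted p in the same direction in both treatments, 18 higher (0.245% of genes tested) and 23 lower (0.313%), made up 33.6% of the 122 genes called in DMSO and 7.58% of the 541 called in PLX4720. Across all 7357 genes, which are not independent replicates, the co-culture differences in the 2 treatments, which share no array, correlated with r of 0.236.

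**Figure D3:**
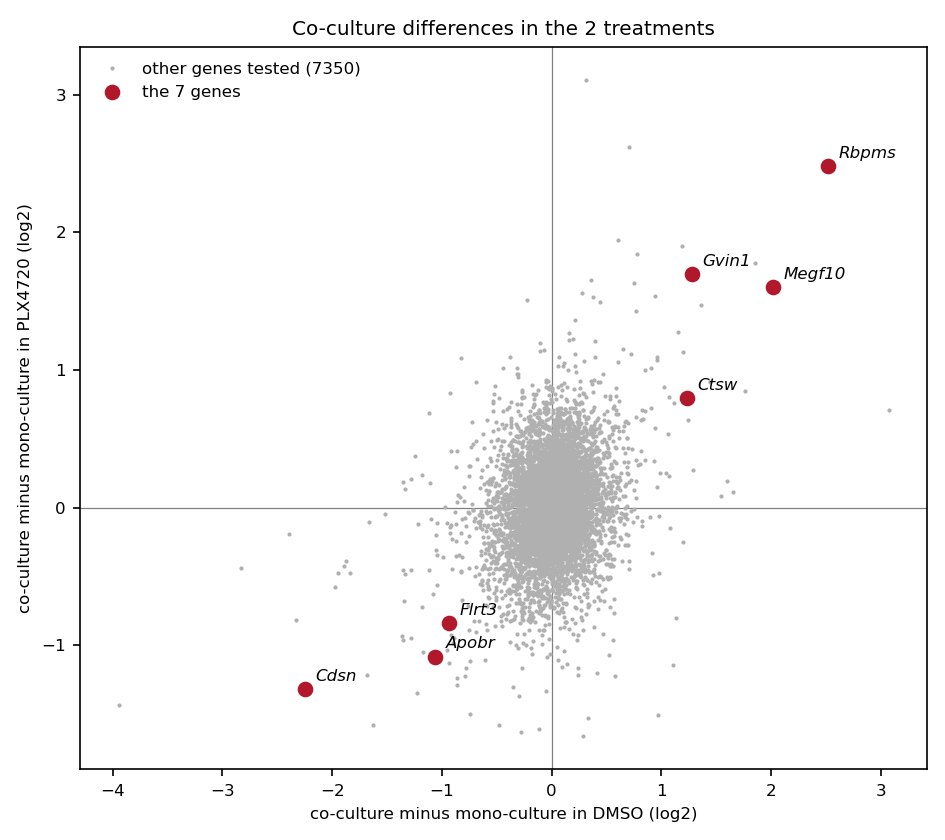
Log2 difference of co-culture minus mono-culture in DMSO (horizontal axis) and in PLX4720 (vertical axis) for each gene tested, with the 7 genes in red. Rbpms lies at 2.52 and 2.48 and Cdsn at -2.25 and -1.32, away from the mass of genes, whose median absolute difference was 0.144 in DMSO and 0.203 in PLX4720.

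The effect of PLX4720 on the same genes played no part in their choice and was tested in each culture. Flrt3, Cdsn, Apobr and Gvin1 rose with PLX4720 in co-culture and in mono-culture, and none of the 7 fell in either. In mono-culture Gvin1 was detected on 1 array alone, in PLX4720. PLX4720 thus moved Flrt3, Cdsn and Apobr opposite to co-culture and Gvin1 in the same direction as co-culture. Of all genes tested, 27.0% passed the adjusted p of limma with Benjamini-Hochberg adjustment for PLX4720 against DMSO in co-culture, 14.3% by a rise and 12.7% by a fall. In mono-culture 38.7% passed, 20.2% by a rise and 18.6% by a fall. The 7 genes were not tested as a list. Cdsn and Gvin1 in co-culture and Apobr in mono-culture kept their calls without any one array, whereas Flrt3 in both cultures, Apobr in co-culture and Gvin1 and Cdsn in mono-culture lost theirs without at least 1 array. A Student's t-test on the same values called 0 of the 7 in either culture after adjustment. The study's methods name that test for ranking genes in its enrichment analysis, not for single genes of these arrays.

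Cdsn was 3.37-fold higher with PLX4720 than with DMSO in co-culture (log2 difference 1.75, SE 0.22, limma adjusted p = 0.000488) and 1.77-fold higher in mono-culture (0.82, SE 0.22, limma adjusted p = 0.0147). Its second probe was tested on its own among all named probes and gave 1.23 in co-culture (limma adjusted p = 0.00452) and 0.59 in mono-culture (limma adjusted p = 0.0692), so in mono-culture the call rested on the brighter probe. Flrt3 was 1.56-fold higher with PLX4720 in co-culture (limma adjusted p = 0.0114) and 1.45-fold higher in mono-culture (limma adjusted p = 0.0171). Both other Flrt3 probes were higher with PLX4720 as well, by 0.60 and 0.44 in co-culture and by 0.57 and 1.21 in mono-culture on the log2 scale, and the dim one did not pass in co-culture (limma adjusted p = 0.132). Apobr was at least 1.32-fold higher with PLX4720 in co-culture (limma adjusted p = 0.0114), since no co-culture array in DMSO detected it, and 1.81-fold higher in mono-culture (limma adjusted p = 0.00714). Without background correction its log2 difference in co-culture was 0.26, below that bound and no longer past the threshold.

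Gvin1 was 2.02-fold higher with PLX4720 than with DMSO in co-culture (log2 difference 1.02, SE 0.15, limma adjusted p = 0.00134). In mono-culture the log2 difference was 0.60 (SE 0.15, limma adjusted p = 0.0126), with 1 detected array in PLX4720 and none in DMSO. The PLX4720 mean there was 0.927 of the lowest signal that counted as detected in DMSO, so detected signal alone showed no rise. Without background correction the difference was 0.17 and did not pass. Co-culture and PLX4720 together gave the top Gvin1 level, a mean of 7.14 against 4.85 in mono-culture in DMSO. Megf10 differed by -0.38 with PLX4720 in co-culture (SE 0.27, limma adjusted p = 0.333), where its arrays did not overlap, as held for 65.6% of all genes tested, and by 0.04 in mono-culture (limma adjusted p = 0.927). Rbpms differed by -0.06 in co-culture (SE 0.15, limma adjusted p = 0.790), and in mono-culture neither treatment had a detected array. For Ctsw the difference was -0.24 in co-culture (SE 0.12, limma adjusted p = 0.179), and again neither mono-culture group had a detected array. A p that misses the threshold does not show that these 3 genes were unaffected.

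**Figure D4:**
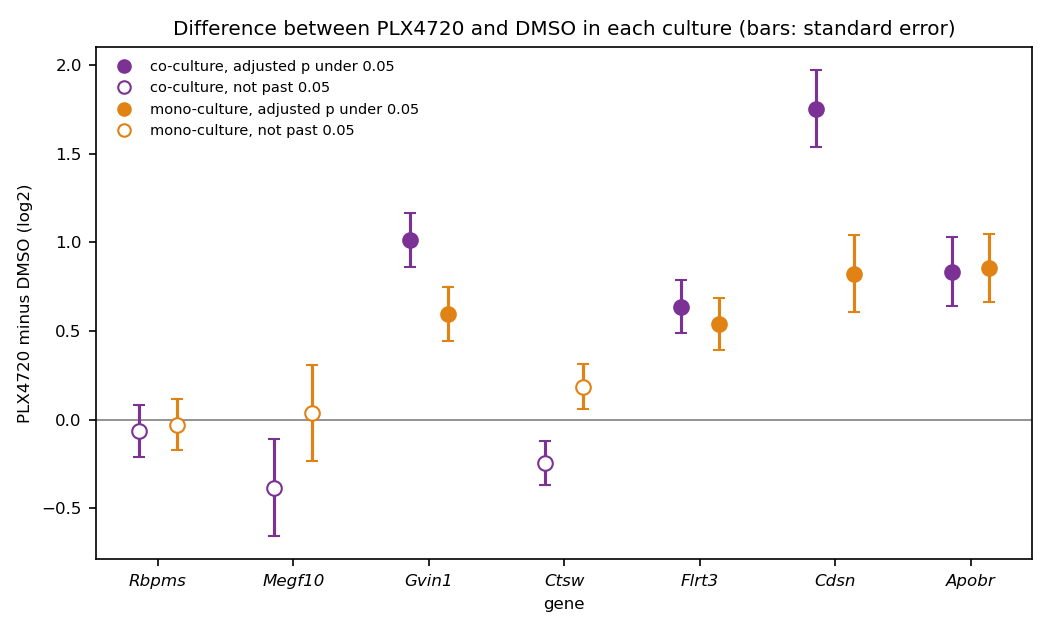
Log2 difference of PLX4720 minus DMSO (vertical axis) for the 7 genes (horizontal axis) in co-culture and mono-culture, with bars of 1 standard error and filled points at a limma adjusted p under 0.05. Gvin1, Flrt3, Cdsn and Apobr lie above 0 in both cultures, with Cdsn in co-culture at 1.75, and Rbpms, Megf10 and Ctsw are open.

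Fibroblast markers moved with the drug as well. Of the 13 tested, 10 rose and 1 fell with PLX4720 in each culture, with a median log2 difference of 1.73 in co-culture and 1.36 in mono-culture, against 0.01 over all genes in each. Col1a1, Mfap5 and Ogn, among those that rose, were detected on no array in DMSO. These genes passed the detection filter through PLX4720 arrays alone and so had to be higher there. With co-culture none of the 13 passed in PLX4720 (2 before adjustment, in opposite directions), and in DMSO none rose, also unadjusted, and 3 fell. The summed marker level was thus no higher in co-culture than in mono-culture in DMSO, and its part in the PLX4720 differences of the 7 genes was not tested. Whether RNA of carried-over fibroblasts had a part in their co-culture differences was not tested either.

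The relatives and partners of the 7 genes were counted in lists drawn up by function. Of 7 interferon-inducible GTPases tested, the family of Gvin1, 6 rose with PLX4720 in co-culture and 5 in mono-culture, and none fell. Of these, Igtp was detected on no mono-culture array, so its rise there lay below detection. Igtp, Gbp3 and Irgm2 were detected on no array in DMSO. They passed the detection filter through PLX4720 arrays alone and so had to be higher on those arrays, which the counts of risers include. Gbp2, a guanylate-binding GTPase, rose 6.10-fold in co-culture and 6.62-fold in mono-culture (limma adjusted p = 6.05e-06 and 4.82e-06). With co-culture itself Irgm1, an immunity-related GTPase, was the 1 that passed, in PLX4720 (log2 difference 0.64, limma adjusted p = 0.0363), and none passed in DMSO (1 at an unadjusted p under 0.05), where the median of the 7 was 0.02 against 0.01 over all genes.

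Of 15 engulfment receptors and bridging molecules, the setting of Megf10, 1 passed with co-culture in each treatment, both by a rise. These were the bridging protein Pros1 in PLX4720 (log2 difference 0.62, limma adjusted p = 0.0248) and the integrin subunit Itgb5 in DMSO (0.99, limma adjusted p = 0.0370). At an unadjusted limma p under 0.05, 2 were higher and 5 lower with co-culture in PLX4720, and 3 higher and none lower in DMSO. The median of the 15 was -0.28 in PLX4720 and 0.18 in DMSO, against 0.01 over all genes in each, so the list did not share 1 direction. With PLX4720, 4 rose and 2 fell in co-culture, and 5 rose and 1 fell in mono-culture. Gulp1, an adaptor that binds engulfment receptors, rose 1.84-fold in co-culture and 2.82-fold in mono-culture, while Mertk, a receptor kinase for apoptotic cells, fell to 0.177 of its DMSO level in mono-culture (limma adjusted p = 1.20e-05).

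Of 9 cathepsins and cystatins tested beside Ctsw, none passed with co-culture in DMSO (2 at an unadjusted p under 0.05), whereas in PLX4720 Ctsc rose (0.60) and Ctsa fell (-1.02). With PLX4720, 1 rose and 2 fell in each culture, the riser being Cst3, the secreted cathepsin inhibitor cystatin C (1.97-fold in co-culture, 1.52-fold in mono-culture). Of 15 splicing and RNA-binding regulators beside Rbpms, none passed with co-culture in DMSO (1 at an unadjusted p under 0.05), while 2 rose and 1 fell in PLX4720, Rbfox2 and Srsf1 against Rbm38. Rbpms2, the paralogue of Rbpms, had co-culture differences of 0.29 in PLX4720 and 0.22 in DMSO, neither past the threshold, and fell with PLX4720 to 0.502 of its DMSO level in co-culture and 0.477 in mono-culture.

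Of 6 FLRT proteins and partners tested beside Flrt3, Tenm4, a teneurin, was the 1 that passed with co-culture, by a fall in PLX4720 (-1.10, limma adjusted p = 0.00983). The netrin receptor Unc5b, a Flrt3 binding partner, fell with PLX4720 to 0.347 of its DMSO level in co-culture and 0.200 in mono-culture, the opposite direction to Flrt3. Of 17 desmosome and cornified envelope genes with a probe, Pkp2, a desmosomal plakophilin, was the 1 that was detected well enough to be tested, so Cdsn was measured with hardly any of its epidermal partners. Pkp2 rose 2.46-fold with PLX4720 in co-culture and 2.27-fold in mono-culture, as Cdsn did, but differed by 0.10 and -0.02 with co-culture in PLX4720 and in DMSO, neither past the threshold. Of 7 lipoprotein receptors tested beside Apobr, Vldlr, which binds triglyceride-rich lipoproteins, was the 1 that passed with co-culture. It fell in PLX4720 (-1.03, limma adjusted p = 0.00983) and in DMSO (-0.95, limma adjusted p = 0.0192). Vldlr rose with PLX4720 in co-culture (1.53-fold) and mono-culture (1.62-fold), so it had the directions of Apobr. At an unadjusted limma p under 0.05, 1 of the 7 was higher and 3 were lower with co-culture in PLX4720, and none was higher and 2 were lower in DMSO.

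Over the 8 arrays, whose 4 groups of 2 share their cultures and treatments, the levels of Flrt3, Cdsn and Apobr correlated with each other with r of 0.915 to 0.944. Rbpms, Megf10 and Ctsw correlated with each other with r of 0.946 to 0.963, and Gvin1 correlated with these 3 with r of 0.775 to 0.861. With the 3 lower genes, Rbpms, Megf10 and Ctsw correlated with r of -0.856 to -0.718 and Gvin1 with r of -0.435 to -0.357. The genes most like each of the 7 were Kdelr3 (0.979), Mt4 and Mfap2 for Rbpms, Aup1 (0.990), P4ha2 and Kdelr3 for Megf10, and Vmp1 (0.962), Zfp768 and Zfp281 for Gvin1. For Ctsw they were Stx1a (0.971), Nuak2 and Luc7l, for Flrt3 Igfbp6 (0.984), Adh7 and Hebp1, for Cdsn Crebl2 (0.978), Fam171b and Pdzrn3, and for Apobr Grn (0.988), Gstm1 and Atf5. These correlations describe 8 arrays and carry no test. The 7 genes were chosen by their co-culture direction on these same arrays, so the signs of r among them largely follow from that choice.

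Within 100 kb of the 7 genes lay 24 other genes tested, around 5 of the 7. With co-culture, 2 rose and 1 fell in PLX4720 and 1 rose in DMSO. Nupr1, a stress-response gene 34121 bases from Apobr, rose with co-culture by 0.80 in PLX4720 (limma adjusted p = 0.0186) and 1.07 in DMSO (limma adjusted p = 0.00673), opposite to Apobr. Fosl1, which encodes the AP-1 factor Fra-1 and lies 9105 bases from Ctsw, rose with co-culture in PLX4720 by 1.27 (limma adjusted p = 0.00662), differed by 0.16 in DMSO without passing, and fell with PLX4720 by 2.12 in co-culture and 3.24 in mono-culture on the log2 scale. Fibp overlaps the span of Ctsw and Cln3 that of Apobr, and neither passed with co-culture in either treatment. The neighbours were chosen by distance alone, and Nupr1 and Fosl1 were named after their values were seen.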

How the data were processed

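The authors deposited the mean intensity of each probe's beads without normalization or log transformation. A detection p-value, which sets the probe beside negative-control probes on the same array, was deposited with each intensity. They also deposited a table of log2 values, which quantile normalization of the intensities alone, with no background step, gave again (largest difference 5.0e-09). Their processing notes name lumi, and its version is not given in the sources used here. From the intensities, levels were calculated with neqc of limma 3.58.1 in R 4.3.3 (offset 16). The table held 25697 probes, 23978 with 1 gene symbol and 1719 with none, and 23962 were matched to RefSeq by gene identifier. Probes detected (p under 0.01) on 2 or more of the 8 arrays were kept, which left 10660 probes and 7357 genes, and for 1953 genes with several kept probes the one with the highest mean was used. Group means were fitted on all 8 arrays with lmFit and eBayes (4 residual degrees of freedom, prior 5.49), with Benjamini-Hochberg adjustment over all genes and a threshold of 0.05. Where no array of 1 group detected a probe and both arrays of the other did, the fold is a lower bound against the lowest detected signal. The number of arrays limits the precision. The fit was checked on simulated data.

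Members, lists and tests were chosen with earlier results of these data known. All members and all their probes are named. From each list up to 4 genes were chosen by the smallest p with PLX4720 or the largest co-culture difference, and the 3 genes most like each member by Pearson r. Same-numbered arrays did not deviate together (correlations of -0.0836 to 0.0899), so replicate numbers were not treated as pairs. Alternatives were other background corrections and scalings, other filters and probe choices, the deposited log2 values, a Student's t-test, a replicate block and leaving out each array. Where a probe lies in its transcript was not analysed here.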

Additional observations from a re-analysis of the deposited data

Results flagged for a closer look

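Ctsw was lower with PLX4720 than with DMSO on every co-culture array (5.59 and 5.58 against 5.89 and 5.76) and higher on every mono-culture array (4.76 and 4.81 against 4.51 and 4.69), opposite directions in the 2 cultures. The PLX4720 difference in co-culture minus that in mono-culture was -0.43 (SE 0.18) on the log2 scale. This difference was not tested, and no mono-culture array detected Ctsw. PLX4720 and DMSO arrays did not overlap in co-culture for 65.6% of all genes tested. The share with such opposite directions in the 2 cultures was not counted.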

How the results depend on the processing

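The choice of the 7 genes fixed their co-culture direction, so its recurrence across settings is no sign of stability. Requiring detection on all 8 arrays left 2 genes measured (Flrt3 and Cdsn) and a count of 2 in each of the 4 comparisons. The size of the co-culture differences depended on the background correction for all 7 genes: without it Rbpms had 0.99 in PLX4720 and 1.02 in DMSO, Cdsn -1.14 and -1.64, and Flrt3 -0.68 and -0.69. For PLX4720 against DMSO the count of 4 in co-culture ranged between 2 and 4 when single arrays were left out (2 without Co_PLX replicate 2 or Co_DMSO replicate 1, which lost Flrt3 and Apobr, and 3 without Co_DMSO replicate 2, which lost Flrt3). In mono-culture it ranged between 2 and 4 (2 without Mono_DMSO replicate 2, which lost Gvin1 and Flrt3). The count in mono-culture was 3 without Mono_PLX replicate 1, which lost Gvin1, without Mono_DMSO replicate 1, which lost Cdsn, and without Mono_PLX replicate 2, which lost Flrt3 and Cdsn and brought in Megf10 at 0.55. Leaving an array out left its group with 1 array, which was assumed to vary like the others. A Student's t-test with Benjamini-Hochberg adjustment called 0 of the 7 in either culture. At an unadjusted p under 0.05 it called 5 in co-culture and 0 in mono-culture. Over all genes 7 were called in co-culture and 0 in mono-culture after adjustment, and 1950 and 2241 before it. Without background correction, and with the deposited log2 values, the counts were 3 and 3, losing Apobr in co-culture (0.26) and Gvin1 in mono-culture (0.17), and normexp with an offset of 50, against 16 in neqc, lost Gvin1 in mono-culture (0.29). The replicate block gave 4 and 4 and changed no call of the 7. Signs turned for Rbpms and Megf10, neither past the threshold with all 8 arrays: Rbpms in co-culture was 0.020 under median scaling and between -0.17 and 0.047 over all settings, Rbpms in mono-culture lay between -0.18 and 0.13, and Megf10 in mono-culture between -0.47 and 0.55. With 2 arrays a group, dim probes such as Ctsw are the least certain.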
